A study of Mus musculus with 8 samples.

Results

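The genes described here are Gata3, the transcription factor that directs Th2 differentiation, 3 genes tied to its action (Zfpm1, Nfil3 and Il4ra), and surface receptor genes of Th2 cells (Il1rl1, Ccr4 and Ccr8). They and the gene lists used below were chosen by name, with earlier results of these data known. Every probe set annotated to a member alone was read from the deposited expression table. Of the 7 members 6 were found in that annotation, with 9 probe sets in all, out of 18193 genes; Il1rl1 was not analysed here. The values came from 8 mouse Affymetrix arrays, 2 in each of 4 groups, and they are log2 levels from the summary method GCRMA. The Tfh group held CD4+CXCR5+ T cells sorted from the spleens of C57BL/6 mice at day 7 after immunization with keyhole limpet haemocyanin (KLH) and restimulated with anti-CD3 for 4 h. The other groups began as naive CD4 T cells from spleen and lymph node of OT-II mice, which carry a transgenic T cell receptor on a C57BL/6 background, at an age of 6 to 8 weeks. These cells were activated for 5 days with OT-II peptide and antigen-presenting cells. Th1 cultures received IL-12 (10 ng/ml) and an antibody to IL-4, Th2 cultures IL-4 (10 ng/ml) and an antibody to interferon gamma, and Th17 cultures IL-6 (20 ng/ml), TGF-beta and antibodies to IL-4 and interferon gamma. Sorted cells and cultured cells thus differed in source, antigen, time and restimulation as well as in type, and these cannot be told apart.

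IL-4 binds a receptor that contains the IL-4 receptor alpha chain, encoded by Il4ra, and the bound receptor activates the factor STAT6. STAT6 raises Gata3 in activated T cells, and Gata3 opens and activates the locus that holds Il4, Il5 and Il13. Zfpm1 encodes FOG-1, a zinc finger cofactor that binds GATA factors and restrains Gata3 in T cells, and Nfil3 encodes a basic leucine zipper factor that acts on Th2 cytokine genes. CCR4 and CCR8 are chemokine receptors known from Th2 cells, skin-homing T cells and regulatory T cells.

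The arrays carried the T cell genes and, in part, genes of other cells. All 7 T cell markers on the array exceeded 3.13, the filter level used for testing, on every array, Cd4 among them (8.61 to 11.84), and Il17a was highest in the Th17 arrays (14.35 and 13.93) and Ifng in the Th1 arrays (15.39 and 15.07). The Tfh values were distributed differently: as deposited, the tested gene in the middle of the ranking differed by 0.85, 0.84 and 0.83 for Tfh minus Th1, minus Th2 and minus Th17, and by -0.21, -0.20 and -0.19 after quantile normalization over the 8 arrays. Differences that involve Tfh are therefore also given relative to the median gene. The Tfh arrays resembled each other far more than other replicates did, with 11 tested genes more than 1 log2 unit apart against 696 to 1435 in the cultured pairs. Neutrophil markers were above the filter level in 9 of 9 cases on both Tfh arrays (log2 of their summed signal 16.14 and 16.09), on 7 of 9 in Th2 replicate 1 (11.88), and on 1 to 3 elsewhere (5.96 to 7.63). Mast cell and basophil markers were above it in 6 of 10 cases in Th2 replicate 1 (summed 10.80) and in 1 to 3 on the other arrays (6.09 to 9.17). Fcer1a, a chain of the receptor for IgE, stood at 7.48 and Mcpt8, a basophil protease, at 9.17 in Th2 replicate 1, against 2.35 and 2.63 in Th2 replicate 2. Other genes of the list did not follow. Tpsb2, Tpsab1 and Mcpt4 lay below the filter level on every array. Kit stood at 2.72 in Th2 replicate 1 and at 8.50 and 8.47 in Tfh. Macrophage and dendritic cell markers, of which all 14 were on the array, summed to 14.41 and 11.44 in Th2, 11.29 and 8.53 in Th17, 6.51 and 7.40 in Th1, and 12.57 and 12.56 in Tfh.

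**Figure D1:**
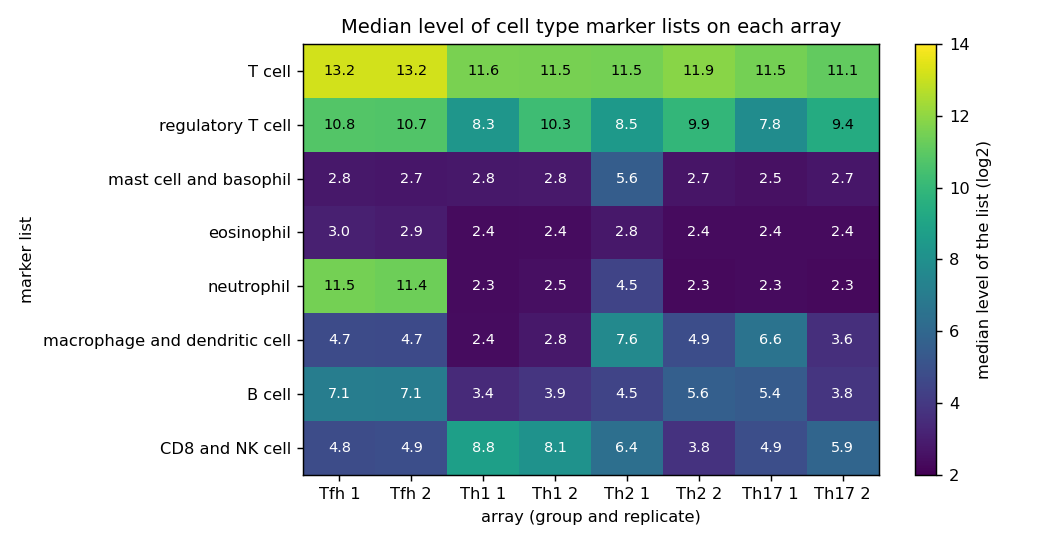
Median log2 level of each fixed list of cell type markers (rows) on each array (columns, group and replicate), with the value written in each cell. Neutrophil markers stand at 11.5 and 11.4 in the Tfh arrays and at 2.3 to 4.5 elsewhere, and mast cell and basophil markers at 5.6 in Th2 replicate 1 and 2.5 to 2.8 elsewhere.

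As deposited, Gata3 stood at overlapping levels in the sorted Tfh cells and the Th2 cultures, and below both in every Th1 and Th17 array. Its level was 10.67 and 10.52 on the Tfh arrays and 10.44 and 11.13 on the Th2 arrays. On the Th1 arrays it was 4.95 and 7.74, and on the Th17 arrays 5.95 and 6.97. All 4 Tfh and Th2 values lay above all 4 Th1 and Th17 values, and the Tfh values fell within the range of the Th2 pair. Gata3 was called higher in Tfh than in Th1, by 4.25 (SE 0.91, adjusted p = 0.00797), and than in Th17, by 4.14 (SE 0.91, adjusted p = 0.00904), and 3.41 and 3.31 of these units lay above the median gene. A call means a limma adjusted p under 0.05 over all 11178 tested genes and an absolute difference of at least 1 log2 unit. Both calls held as deposited, after a shift of the arrays to a common median and after quantile normalization, and the second ended without Tfh replicate 1 (adjusted p = 0.052).

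Between Th2 and the other cultures Gata3 also differed by more than 4 log2 units, but no difference was called. Gata3 averaged 10.79 ± 0.49 (SD, n = 2) in Th2, 6.34 ± 1.97 in Th1 and 6.46 ± 0.72 in Th17, differences of 4.44 (adjusted p = 0.0997) and 4.33 (adjusted p = 0.129) with 95% intervals from 2.20 to 6.68 and from 2.09 to 6.56. The Th2 and Th1 values did not overlap, nor did the Th2 and Th17 values. Th1 replicate 1 and replicate 2 were 2.79 log2 units apart for Gata3. Without Th1 replicate 2 the difference from Th1 was 5.84 and was called (adjusted p = 0.0179), and that from Th17 was called without Th1 replicate 1 (0.0314) or 2 (0.0324). Between Th2 and Tfh, the leading pair in the order of levels, the difference was -0.19 for Tfh minus Th2 (95% interval -2.43 to 2.05). Relative to the median gene it was -1.03. The difference itself ranged from -1.13 to 0.16 over the alternatives and was called in none. Between Th17 and Th1, the lower pair, the difference was 0.12 (-2.12 to 2.36). Neither pair could be ranked within its spread. The Th2 array with 6 of 10 mast cell and basophil markers above the filter level, replicate 1, had the lower Gata3 level of its pair. That array also had more neutrophil, macrophage and dendritic cell marker signal than replicate 2. The part of such cells in the Gata3 level was not tested.

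**Figure D2:**
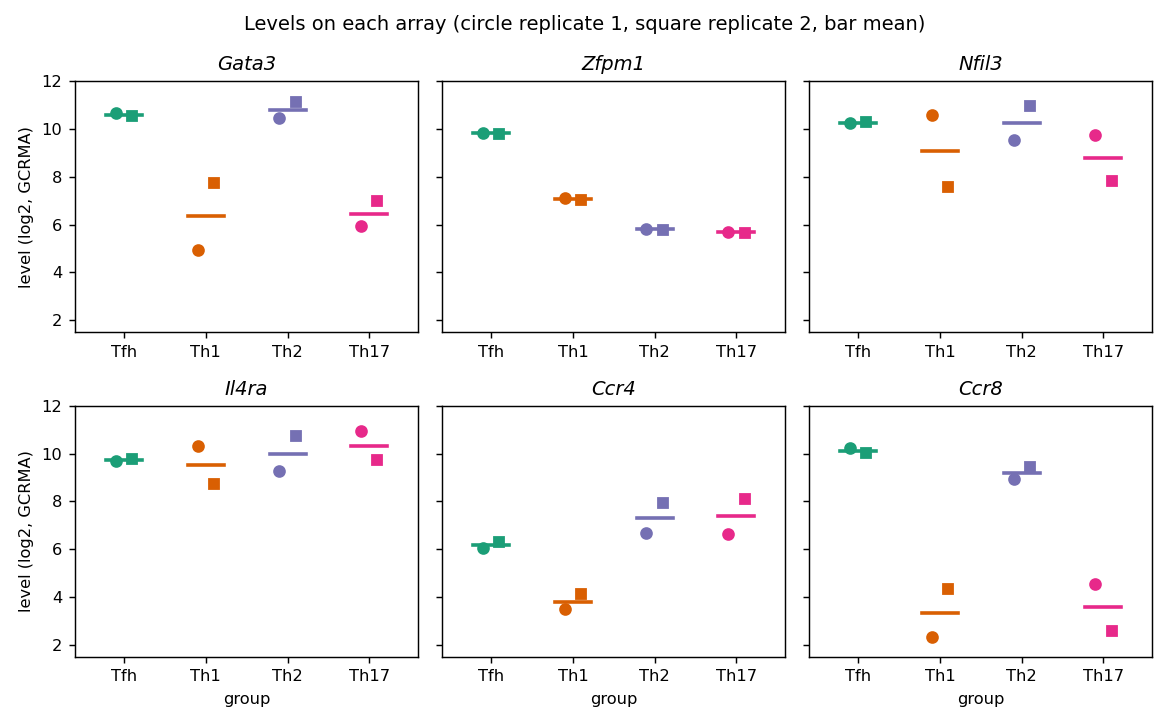
Level (log2, vertical axis) of the 6 genes on each array, by group (horizontal axis); circles are replicate 1, squares replicate 2 and bars the mean of both. Gata3 and Ccr8 are high in Tfh and Th2, Zfpm1 is highest in Tfh, Ccr4 is lowest in Th1, and the groups overlap for Nfil3 and Il4ra, apart from Tfh and Th17 for Nfil3.

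Zfpm1, the cofactor gene that restrains Gata3, separated Tfh from every culture. Its main probe set read 9.84 and 9.79 in Tfh and 7.11 and 7.02 in Th1, and 5.81 and 5.79 in Th2 and 5.70 and 5.65 in Th17. The order was thus Tfh, Th1, Th2, Th17, with no overlap between any pair of groups. It was called higher in Tfh than in Th1 by 2.75 (SE 0.17, adjusted p = 9.02e-05), than in Th2 by 4.01 (adjusted p = 2.13e-05) and than in Th17 by 4.14 (adjusted p = 1.99e-05), which is 1.90, 3.18 and 3.31 relative to the median gene. These 3 calls held under every alternative that was run. The second probe set of Zfpm1 read 5.24 on both Tfh arrays and 1.89 to 2.73 on the 6 cultured arrays, all below the filter level, and gave differences of 2.91, 3.33 and 3.34.

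Among the cultures Zfpm1 was low in both Th2, where Gata3 was high, and Th17, where Gata3 was low. It was called lower in Th2 than in Th1 (difference -1.27, SE 0.17, adjusted p = 0.0351). That call ended without any one of the Tfh, Th1 or Th2 arrays (adjusted p = 0.0505 to 0.161), in a fit on the 6 cultured arrays alone (0.145) and with the second probe set (-0.42, adjusted p = 0.48). Th17 minus Th1 was -1.39 (95% interval -1.81 to -0.97), and this missed the threshold (adjusted p = 0.0692). Th2 minus Th17 was 0.13 (-0.30 to 0.55).

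Nfil3 and Il4ra were not called in any of the 6 comparisons. Nfil3 read 10.23 and 10.27 in Tfh, 10.56 and 7.59 in Th1, 9.55 and 10.98 in Th2, and 9.75 and 7.82 in Th17. Its order was Th2, Tfh, Th1, Th17, and the widest gap between groups, 1.47 for Th2 minus Th17 (95% interval -1.32 to 4.26), was narrower than the 2.98 log2 units between the Th1 replicates. For Il4ra, which encodes the chain through which cells sense IL-4, the levels were 9.70 and 9.76 in Tfh, 10.30 and 8.73 in Th1, 9.25 and 10.72 in Th2, and 10.94 and 9.72 in Th17. Its order was Th17, Th2, Tfh, Th1, with every pair of groups overlapping. The largest difference, Th17 minus Th1, was 0.82 (-0.99 to 2.63). In both genes replicate 1 was the higher of the pair in Th1 and Th17 and the lower in Th2. The second Il4ra probe set showed the same replicate order within each group, with differences of 0.60, 0.68 and 0.08 for Th2 minus Th1, Tfh minus Th1 and Tfh minus Th2, and the third read 1.43 to 2.13, below the filter level on all 8 arrays.

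The chemokine receptor genes followed different patterns. Ccr8 read 10.21 and 10.02 in Tfh, 8.92 and 9.43 in Th2, 2.34 and 4.33 in Th1, and 4.56 and 2.56 in Th17. Th1 replicate 1 and Th17 replicate 2 lay below the filter level, so differences from Th1 and Th17 are partly against such values. As with Gata3, the Tfh and Th2 arrays stood above the Th1 and Th17 arrays. Ccr8 was called higher in Tfh than in Th1 by 6.78 (SE 0.86, adjusted p = 0.0011) and than in Th17 by 6.55 (adjusted p = 0.0013), with 5.93 and 5.73 relative to the median gene, and both calls held under every alternative that was run. It was called higher in Th2 than in Th1 by 5.84 (SE 0.86, adjusted p = 0.0459), a call that ended after quantile normalization (0.0716), in the fit on cultured arrays alone (0.149) and without Th1 replicate 1 (0.0788), either Th2 replicate (0.158 and 0.159) or either Tfh replicate (0.153 and 0.154). Th2 minus Th17 was 5.61 and missed the threshold (adjusted p = 0.0706); it was called without Th1 replicate 1 (0.0495), Th1 replicate 2 (0.0488) or Th17 replicate 1 (0.0499). Both Tfh values lay above both Th2 values, yet the difference of 0.94 had a 95% interval of -1.19 to 3.07, was 0.10 relative to the median gene and turned to -0.16 after quantile normalization.

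Ccr4 was lowest in Th1, and its levels overlapped in the Th2 and Th17 cultures. It read 3.48 and 4.13 in Th1, 6.04 and 6.29 in Tfh, 6.68 and 7.95 in Th2, and 6.64 and 8.10 in Th17. The Th1 values lay below all 6 others, and the Tfh values below those of Th2 and Th17. Th2 minus Th1 was 3.50 (95% interval 1.95 to 5.06, adjusted p = 0.0736) and Th17 minus Th1 was 3.57 (2.01 to 5.12, adjusted p = 0.158), neither called, while Th2 minus Th17 was -0.06 (-1.61 to 1.49). Against Th1, Tfh was called higher by 2.36 (SE 0.63, adjusted p = 0.0184). Beyond the shift of the median gene this was 1.51. The call ended after quantile normalization (0.74, adjusted p = 0.344), without Tfh replicate 1 (0.0692) or 2 (0.089) and without Th1 replicate 1 (0.0818). Tfh minus Th2 was -1.15 and Tfh minus Th17 was -1.21 as deposited, neither called; after quantile normalization they were -2.74 and -2.77 and were called (adjusted p = 0.0124 and 0.0129).

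Promoters of the 6 genes were read from RefSeq (GRCm38.p6), with 1 window of 300 bases each, from 250 bases before to 50 after the annotated start. The GATA motif (AGATAA and AGATAG as well as TGATAA and TGATAG, on either strand) was searched because Gata3 is the factor these genes are known for. It was found in 2 of 6 windows, those of Gata3 and Ccr8, and in 29.8% of 32851 promoter windows of the same length. The STAT6 motif (TTC and GAA with 4 free bases between, the same on both strands) was in none of the 6 windows and in 6.95% of all. The 250 bases before each start are printed for Gata3 and Ccr8, high in Tfh and Th2, and for Ccr4, high in Th2 and Th17, with a GATA motif in capitals (in Ccr8 as its reverse complement, up to 239 bases before the start).
Gata3, minus strand, chr2:9878601-9878850: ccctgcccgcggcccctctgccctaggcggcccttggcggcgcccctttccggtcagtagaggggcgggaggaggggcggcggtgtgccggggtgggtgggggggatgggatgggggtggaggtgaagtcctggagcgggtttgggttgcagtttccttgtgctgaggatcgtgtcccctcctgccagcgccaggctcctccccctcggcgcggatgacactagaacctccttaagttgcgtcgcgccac
Ccr8, plus strand, chr9:120091883-120092132: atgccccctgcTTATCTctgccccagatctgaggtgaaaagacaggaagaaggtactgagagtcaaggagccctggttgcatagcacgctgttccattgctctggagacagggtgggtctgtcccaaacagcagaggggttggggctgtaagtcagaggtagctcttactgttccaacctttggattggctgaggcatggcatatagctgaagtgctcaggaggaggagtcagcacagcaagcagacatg
Ccr4, minus strand, chr9:114496545-114496794: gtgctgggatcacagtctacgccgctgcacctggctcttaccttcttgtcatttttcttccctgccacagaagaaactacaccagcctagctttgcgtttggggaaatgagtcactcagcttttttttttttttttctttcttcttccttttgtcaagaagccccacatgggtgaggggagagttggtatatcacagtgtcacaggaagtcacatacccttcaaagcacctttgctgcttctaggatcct
Gata3, minus strand, chr2:9878551-9878574, in the transcribed part from base 37 to 42 after the start: ggcgccgtctTGATAGtttcagaa
A match is a description of letters, and binding at these places was not measured.

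Regulatory T cells also carry Gata3, Ccr4 and Ccr8, and some of their markers differed in Tfh. Foxp3 stood at 10.79 and 10.73 in Tfh and at 2.36 to 2.40, below the filter level, on all 6 cultured arrays, and Ikzf2 at 12.88 and 12.84 in Tfh and at 4.39 to 7.16 in the cultures. Il2ra was lower in Tfh than on every cultured array, and the Tfh values of Ctla4, Tnfrsf18, Nrp1 and Gpr83 lay within the range of the cultures. All 7 of the 7 regulatory T cell markers on the array exceeded the filter level in Tfh, against 5 or 6 in the cultures. Their summed signal on the log2 scale was 14.70 and 14.68 in Tfh, 14.20 and 13.58 in Th1, 14.20 and 14.90 in Th2, and 14.33 and 13.50 in Th17. The part of these cells, and of the neutrophil RNA on the Tfh arrays, in the levels of Gata3, Ccr4, Ccr8 and Zfpm1 was not tested. In such bulk samples more cells of a type and more RNA per cell cannot be told apart. In the Th2 cultures Foxp3 stood at 2.38 on both arrays while Gata3 and Ccr8 were high, which does not bear on the Tfh arrays.

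Across members, the count of calls is to be read against that of all genes. Against Th1, 4 of 6 members were called higher in Tfh, where 42.8% of all tested genes were higher, 6.16% lower and 48.9% called either way. Against Th17 it was 3 of 6, where 41.8% were higher, 6.17% lower and 47.9% called. Against Th2 it was 1 of 6 (Zfpm1), where 42.8% were higher, 6.89% lower and 49.7% called. In these 3 comparisons limma called 0 members lower, and 0 were lower at an unadjusted p under 0.05. The shares of members called higher in Tfh are thus to be set against shares of all genes that were also large. After quantile normalization the genes called higher in Tfh were 1743, 1557 and 1800 of 11072 tested, against Th1, Th17 and Th2, in place of 4780, 4667 and 4784. Higher genes then made up 42.3%, 40.6% and 42.9% of the calls, in place of 87.4%, 87.1% and 86.1%. Between Th2 and Th1, 1 member was called higher (Ccr8) and 1 lower (Zfpm1), where 0.895% and 0.349% of all genes were (1.24% either way). Limma called 0 members between Th2 and Th17, where 0.671% of genes were called (0.483% higher and 0.188% lower), and 2 members had an unadjusted p under 0.05, both higher. It called 0 between Th17 and Th1 as well, where 0.143% of genes were called (0.0805% higher and 0.0626% lower), with 1 member higher and 1 lower at an unadjusted p under 0.05. The comparisons of Tfh share the same Tfh arrays, and the comparisons of Th2 share the same Th2 arrays. The median difference over the 6 members was 2.35 for Th2 minus Th1 and 0.80 for Th2 minus Th17, beside -0.02 and -0.01 over all tested genes. It was 2.55, -0.10 and 2.80 for Tfh minus Th1, Th2 and Th17, beside 0.85, 0.84 and 0.83.

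**Figure D3:**
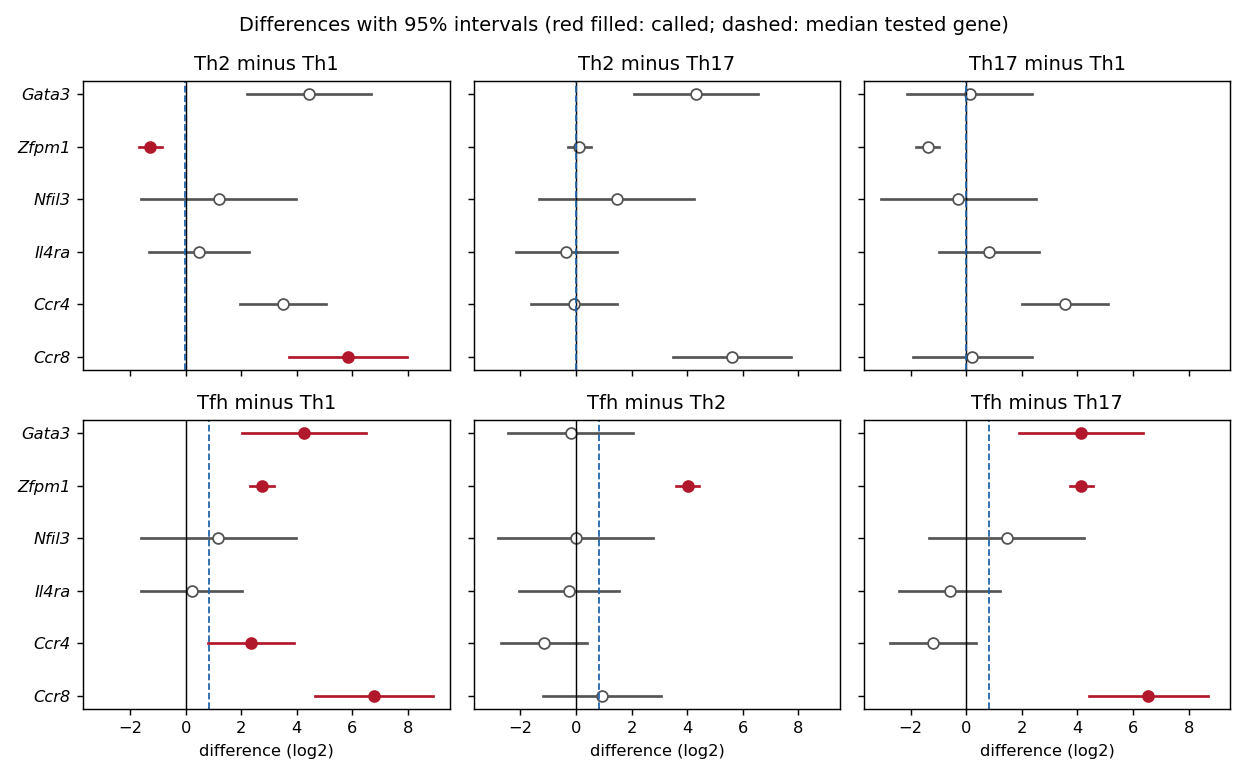
Difference in log2 level (horizontal axis) for each gene in the 6 comparisons, with 95% intervals from the fit; filled red points were called, open points were not, and the dashed line marks the median tested gene. Intervals for Zfpm1 are narrow, at 0.42 on each side, and those of Nfil3 reach 2.79 on each side and cover 0 in every comparison.

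Although Gata3 levels as deposited overlapped in Tfh and Th2, the Th2 cytokine genes were lower in Tfh. Il4 read 15.20 and 15.57 in Th2 and 8.49 and 8.25 in Tfh, with 6.11 and 10.60 in Th1 and 5.54 and 3.47 in Th17. Il5, the eosinophil growth factor gene, read 11.51 and 11.28 in Th2 and 2.19 to 4.02 on all 6 other arrays. Il13, which acts on epithelium and mucus, read 11.39 and 11.22 in Th2 and 7.03 and 6.52 in Tfh. All 7 genes of the Th2 cytokine list were called lower in Tfh than in Th2, with a median difference of -5.83 beside 0.84 over all genes, where 6.89% of genes were called lower. Il31 and, named after its values were seen, Il24 (1.87 and 1.86) lay below the filter level in Tfh. The median, which is the difference of Il31, is thus also taken against such values. Il4 fell by 7.02 (SE 1.47, adjusted p = 0.0072), Il5 by 9.19 (SE 0.40, adjusted p = 2.19e-05) and Il9 by 2.73 (SE 0.06, adjusted p = 1.78e-06), and these calls held in each alternative in which the gene was tested. Il9 read 4.90 and 4.99 in Th2 and 2.21 to 2.48, below the filter level, on the 6 other arrays, and Il5 was below it on 5 of those 6. Both passed the filter through the arrays where they were high, and values below that level are not well measured, so the sizes of these differences and the small SE of Il9 are taken against such values. Without either Th2 array Il9 was not tested. The call for Il10, named after its values were seen (-5.25, adjusted p = 0.0448), ended without any one Tfh, Th2 or Th17 array (0.0509 to 0.146). The call for Il13 (-4.53, adjusted p = 0.0249) ended without any one Tfh or Th2 array (0.0816 to 0.108). In the same comparison Gata3 differed by -0.19 and Ccr8 by 0.94, or by -1.03 and 0.10 relative to the median gene.

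**Figure D4:**
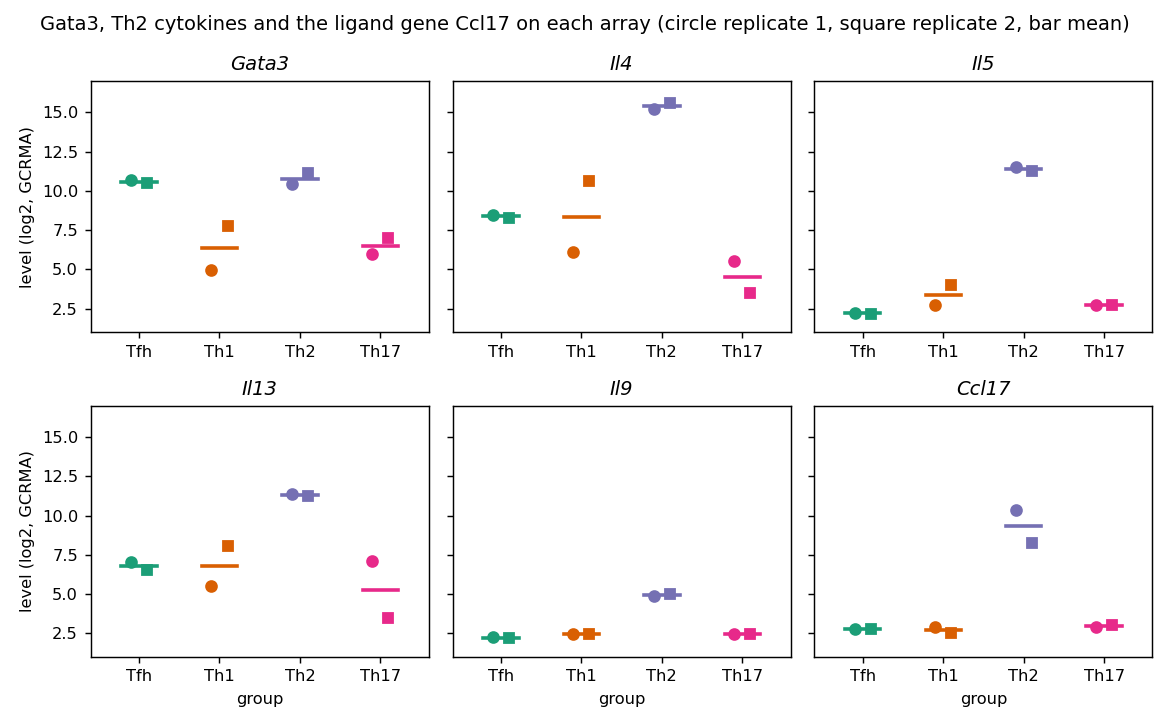
Level (log2, vertical axis) of Gata3, the cytokine genes Il4, Il5, Il13 and Il9 and the chemokine gene Ccl17 on each array, by group (horizontal axis); circles are replicate 1, squares replicate 2 and bars the mean. Gata3 overlaps in Tfh and Th2, whereas the 5 other genes are highest in Th2.

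Within the cultures the cytokine list was also highest in Th2. Outside Th2, Il5 was above the filter level only in Th1 replicate 2 (4.02), and Il9 on no array. Both passed the filter through arrays where they were high, so their differences below are taken wholly or partly against values below that level. Against Th1, where 0.895% of all genes were called higher, 2 of 7 were (Il5 by 8.00, adjusted p = 0.0013, and Il9 by 2.50, adjusted p = 8.24e-05), with a median difference of 4.53. The call for Il5 ended in a fit on these 4 arrays alone (0.0812). Against Th17, where 0.483% of all genes were called higher, 3 of 7 were: Il5 by 8.65, Il9 by 2.49 and Il4 by 10.88 (adjusted p = 0.0497), the last of which was kept in 5 of 20 alternatives. It ended without either Tfh, either Th2 or either Th17 array (0.0716 to 0.179). Il31 read 8.53 and 8.63 in Th2, 4.12 and 7.46 in Th1, 4.30 and 4.10 in Th17, and 2.78 and 2.72 in Tfh. It was called lower in Tfh than in Th2 (difference -5.83, adjusted p = 0.00326). Both Tfh values of Il31 lay below the filter level, so the sizes of its differences from Tfh are against such values. Against Th1, Il31 (-3.04, adjusted p = 0.0375) and Il5 (-1.19, adjusted p = 0.0394) were called lower in Tfh, where 6.16% of all genes were; both calls ended without any one of the Tfh, Th2 or Th17 arrays (0.0579 to 0.141), and that of Il5 also without Th1 replicate 2, where the difference was under 1.

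Il4ra was not called in Tfh, but several genes of IL-4 and ST2 signalling were. Of 11 tested, 8, 7 and 7 were called higher in Tfh against Th1, Th2 and Th17, where 42.8%, 42.8% and 41.8% of all tested genes were, and 6, 5 and 6 of these calls held in all 3 scalings, with medians of 2.04, 2.18 and 1.95 beside 0.85, 0.84 and 0.83 over all genes, and limma called 0 lower (at an unadjusted p under 0.05, 1 in Tfh against Th2). Jak3, Stat5a and Irak1 were not called in any of the 3 comparisons, nor was Traf6 against Th2 and Th17; these 4 are named after their values were seen. Irak1, an adaptor kinase of the ST2 pathway, differed by -0.27, -0.33 and -0.18. Stat6 read 12.13 and 11.98 in Tfh and 9.41 to 10.17 in the cultures, and was higher in Tfh by 2.14, 2.55 and 2.49 (SE 0.19), or by 1.30, 1.71 and 1.66 relative to the median gene. Stat5b, which conveys IL-2 signals, was higher by 3.12, 3.52 and 3.22 (SE 0.29), and Stat3, which conveys IL-6 signals, by 2.65, 2.71 and 2.47 (SE 0.33). The calls for these 3 genes held under every alternative that was run. Tyk2, a kinase of cytokine receptors, was higher by 2.04, 2.33 and 2.65, and the calls against Th1 and Th2 ended after quantile normalization (adjusted p = 0.187 and 0.0883). That against Th1 also ended without Tfh replicate 1 (0.056) or 2 (0.0581). Irs2, an adaptor of the IL-4 receptor, was higher by 2.77, 1.99 and 2.65, and the call against Th2 ended after quantile normalization (0.195). Outside Tfh, Irs2 was above the filter level only in Th2 replicate 1 (3.88), so these sizes are taken largely against values below that level. Among the 3 comparisons of cultured types limma called 0 genes of this list, with 1 at an unadjusted p under 0.05 between Th2 and Th1 and 0 in the others.

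Transcription factors that act beside Gata3 were split. In Tfh, of 14 tested, 8 were called higher and 1 lower against Th1, 7 and 2 against Th2, and 6 and 2 against Th17. Of all genes 42.8%, 42.8% and 41.8% were called higher and 6.16%, 6.89% and 6.17% lower. The medians were 1.18, 1.08 and 1.16 beside 0.85, 0.84 and 0.83 over all genes, and 5, 3 and 2 of the higher calls held in all 3 scalings. The shares called higher against Th2 and Th17 were thus near those of all genes. Maf, which activates Il4, read at least 13.82 on both Tfh arrays, 13.40 and 13.87 in Th2, 11.68 and 9.11 in Th1, and 11.61 and 12.61 in Th17. For Maf the call in Tfh against Th1, 3.52 (adjusted p = 0.0117), ended without either Tfh array (0.0542 and 0.0615). Nfatc1, a factor of T cell receptor signalling, was higher in Tfh by 2.16, 3.23 and 2.48 (SE 0.42), and these calls held under every alternative run. Irf4 was higher by 1.74, 1.63 and 1.16, but each call ended without Tfh replicate 1 (0.0532, 0.0621 and 0.151). The second ended also without Th2 replicate 1 (0.0554), and the third without Tfh replicate 2 or either Th17 array (0.0898 to 0.119) and after quantile normalization (0.144). Chd4, a chromatin remodeller that binds Gata3, was higher by 1.35, 1.84 and 1.71, and all 3 calls ended after quantile normalization. Pparg, a nuclear receptor gene of Th2 cells and macrophages, read 10.26 and 9.64 in Th2, 7.15 and 7.78 in Th17, 6.05 and 4.46 in Th1, and 2.99 and 2.92 in Tfh, where it lay below the filter level. It was called higher in Th2 than in Th1, where 0.895% of all genes were, by 4.69 (SE 0.56, adjusted p = 0.0244), the only gene of the list called between cultured types. This call ended without either Tfh or either Th2 array (0.0697 to 0.122). It was called lower in Tfh than in each culture (-2.30 against Th1, -6.99 against Th2 and -4.51 against Th17), and the first of these ended without either Tfh array (0.0626 and 0.0672). Macrophage and dendritic cell markers were also higher in the Th2 and Th17 than in the Th1 arrays. Their summed signal was 12.57 and 12.56 in Tfh, where Pparg was lowest. Chil3 and Lyz2 were the highest of these markers in Tfh, and Arg1, Mrc1 and Itgax lay below the filter level there. Within Th2 the array with the higher sum (14.41 against 11.44) had the higher Pparg level. Within Th17 (11.29 against 8.53) and Th1 (7.40 against 6.51) it had the lower Pparg level. The part of such cells in the Pparg level was not tested.

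Genes that oppose Gata3 or IL-4 signalling were called in both directions. In Tfh, of 14 tested, 8, 8 and 9 were called higher than in Th1, Th2 and Th17, and 1 lower in each (Zbtb32). Of all genes 42.8%, 42.8% and 41.8% were called higher and 6.16%, 6.89% and 6.17% lower. The medians were 1.80, 1.95 and 1.69 beside 0.85, 0.84 and 0.83 over all genes, and 3, 4 and 3 of the higher calls held in all 3 scalings. Tbx21, the Th1 factor that represses Gata3, read 10.66 and 10.59 in Tfh, 10.89 and 9.43 in Th1, 7.38 and 8.30 in Th2, and 8.82 and 8.32 in Th17. It was higher in Tfh than in Th2 by 2.78 (SE 0.54, adjusted p = 0.00541) under every alternative run. Its call against Th17 (2.06) ended without Tfh replicate 1 (0.0821), Tfh replicate 2 (0.0757) or Th17 replicate 2 (0.0801) and after quantile normalization (0.145). Bcl6 was higher by 4.71, 3.78 and 4.41 (SE 0.87), and for Th2 this was lost without either Tfh array or Th2 replicate 2 (0.0521 to 0.0553). Socs5, an inhibitor of IL-4 receptor signalling, was higher by 2.58, 2.73 and 3.58, and the first call ended after quantile normalization (0.0531). Dusp10, a phosphatase gene, was higher by 5.10, 2.46 and 3.79, and the second call ended after quantile normalization (0.0958) and without Tfh replicate 2 (0.0519). Zbtb32, which encodes the repressor of GATA, was called lower in Tfh (-3.42, -2.40 and -1.89), and the last call ended without Tfh replicate 2 (0.083) or Th17 replicate 1 (0.0693). Among the cultures 1 gene of the list was called, Runx1, named after its values were seen. It was higher in Th2 than in Th1, where 0.895% of all genes were, by 2.66 (SE 0.28, adjusted p = 0.017). That call ended without either Tfh array (0.0804 and 0.0817) or either Th2 array (0.0574 and 0.0697).

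The other receptor genes showed no call between cultured types in limma. Of 11 tested, 2 had an unadjusted p under 0.05 between Th2 and Th1 and 1 between Th2 and Th17. Against Th1, Th2 and Th17, 3, 4 and 3 were called higher in Tfh, where 42.8%, 42.8% and 41.8% of all genes were. In each 1 was called lower, where 6.16%, 6.89% and 6.17% of all genes were. With 11 genes tested, these counts are not read as a difference from all genes. The lower one was Il2ra, the IL-2 receptor alpha chain, at 10.01 and 10.00 in Tfh and 10.96 to 13.04 in the cultures. The calls were -1.69, -2.68 and -2.71, and the first ended without either Tfh array (0.104 and 0.106) or Th1 replicate 1 (0.0735). S1pr1, the receptor for exit from lymphoid organs, was higher by 5.19, 5.64 and 3.84, of which the last ended without either Tfh array (0.0501 and 0.0555). Notch1 was higher by 1.82, 1.70 and 1.82 under every alternative run. Il1rap, the partner chain of the ST2 receptor, was higher than in Th2 by 1.54 and than in Th17 by 1.45, and both turned in sign after quantile normalization (-0.13 and -0.18) and with the mean of its probe sets (-0.24 and -0.10). Both calls ended also without Tfh replicate 2 (0.0794 and 0.0956). The first ended also without Th2 replicate 2 (0.0668) and the second without Th17 replicate 1 (0.0556).

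Genes for ligands of CCR4 and CCR8 were also measured, 3 of them tested. Ccl22, named after its values were seen, was not called in any comparison. It read 11.94 and 11.77 in Th2, 12.34 and 6.86 in Th17, 3.88 and 8.50 in Th1, and at least 8.04 on both Tfh arrays. Ccl17, which encodes a CCR4 ligand made by dendritic cells and macrophages, read 10.33 and 8.28 in Th2 and 2.51 to 3.03, below the filter level, on the 6 other arrays. It was called higher in Th2 than in Th1 by 6.60 (SE 0.62, adjusted p = 0.0117) and than in Th17 by 6.32 (adjusted p = 0.0175), where 0.895% and 0.483% of all genes were. Ccl17 passed the filter only through the 2 Th2 arrays, so the sizes of these differences are against values below the filter level, and without either Th2 array it was not tested. Both calls ended without either Tfh array (0.0639 to 0.0914), and the second also without either Th17 array (0.0562 and 0.0689). The order of Ccl17 within the Th2 pair was that of the macrophage and dendritic cell markers. Those markers also summed to 12.57 and 12.56 in Tfh and 11.29 in Th17 replicate 1, where Ccl17 was below the filter level. In Tfh 8 of 14 were above that level, with Chil3 and Lyz2 highest (11.31 to 11.43), while Arg1, Mrc1 and Itgax lay below it. Sums on Tfh and cultured arrays thus do not rest on the same genes. The part of such cells in the Ccl17 level was not tested. Ccl1, which encodes a ligand of CCR8, read 11.67 and 13.72 in Th1, 10.35 and 10.08 in Th2, 7.64 and 8.91 in Th17, and 7.81 and 7.57 in Tfh. It was thus highest in the Th1 cultures, where, as in Th17, Ccr8 was low. Ccl1 was called lower in Tfh than in Th1 (difference -5.01, adjusted p = 0.00181) and than in Th2 (difference -2.53, adjusted p = 0.0238), where 6.16% and 6.89% of all genes were. The second of these ended without any one Tfh or Th2 array (0.0714 to 0.104).

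Genes with the profile most like each member over the 8 arrays were found by Pearson correlation, which is a description over arrays that share groups and, for Tfh, a scale. For Gata3 they were Slc36a4 (0.97), Ammecr1 (0.97) and Sod1 (0.97), and for Ccr8 Ift20 (0.98), Panx1 (0.97) and Baz1a (0.97). Slc36a4, an amino acid transporter gene, read 8.94 and 8.97 in Tfh, 9.11 and 8.68 in Th2, and 6.53 to 7.56 in Th1 and Th17. For Zfpm1 they were Jmjd8, Ugcg and Pip4k2a (0.99 to 1.00), each highest in Tfh. For Ccr4 they were Tmem128 (0.96), Pigm (0.96) and Faap20 (0.93). The best values were lower for Nfil3 (Slc11a2, St3gal1 and Gpr146, 0.92 to 0.93) and Il4ra (Afg3l2, Crybg1 and Pkm, 0.89 to 0.90), both of which had Th1 replicates further apart than the means of any pair of groups.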

How the data were processed

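Levels were measured on Affymetrix expression arrays of 8 samples, 2 in each of 4 groups. The deposited log2 values had been summarized by the authors with GCRMA, per the submitters' processing notes; its version and which arrays were normalized together are not given in the sources used here. Probe sets were named through GEO's platform annotation: 34945 of 45101 had 1 symbol, 932 several and 9160 none, and 64 were controls. No symbol changed when it was looked up by gene identifier in RefSeq (GRCm38.p6).

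Each of 18193 genes was represented by its brightest probe set on average. A gene was tested if at least 2 arrays exceeded the median of the whole table (percentile 50, 3.13), which left 11178 genes, and all 6 members found passed (Ccr8 on 6 arrays, the others on 8). The test was limma 3.58.1 (R 4.3.3), 1 fit with a coefficient per group and a variance that may follow the mean level, with 4 residual and 1.78 prior degrees of freedom, two-sided, with Benjamini-Hochberg adjustment over all tested genes; the SE and the 95% interval come from that fit, and the SD from the 2 arrays of a group. The labels do not say if replicates came from different animals or cultures; each p then reflects only the spread among these samples, possibly technical, and the number of arrays limits the precision.

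The members and gene lists were chosen with earlier results of these data known. Besides the members, each pathway list gives at most the 4 genes called in most comparisons and Il4, Il5, Il13, Stat6, Maf and Tbx21, and each member the 3 tested genes of highest correlation, leaving out uncharacterised symbols (Rik, numbered Gm or LOC). Of 69 listed pathway genes 66 were on the array and 60 were tested. Alternatives were other scalings, filters, probe set rules, variance models and thresholds, the replicate number as a block, leaving out each array, the 2 groups alone, the Tfh arrays as 1 sample, and, chosen after seeing the data, the cultured arrays alone. The procedure was tested on simulated data. Python 3.11.15 with matplotlib 3.10.9 drew the plots.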

Additional observations from a re-analysis of the deposited data

How the results depend on the processing

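Over 36 member differences, 714 alternative values were computed. Of these 646 kept their direction and their side of the threshold, 30 lost a call, 13 gained one and 25 changed sign, none of the last in a called difference; the causes were not tested. Of 6 members, 2 were called between Th2 and Th1; the number was 1 after quantile normalization, with no filter, with the mean of probe sets and with no variance trend, 0 with the Tfh arrays as 1 sample, in a fit on only the 2 groups and on cultured arrays only, and 0 to 2 without each array in turn. Between Th2 and Th17 it was 0, and 0 to 2 without each array in turn. Between Th17 and Th1 it was 0, and 1 with no variance trend. Between Tfh and Th2 it was 1, and 2 after quantile normalization. For Ccr4, Tfh minus Th17 was called without Th17 replicate 1 (-1.94, adjusted p = 0.0454).

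The main fit did not pair samples by replicate number. Deviations of same-numbered arrays correlated at 0.00 to 0.27 over pairs of groups (-0.002 at the lowest). The values were 0.255 for Th1 and Th17 and 0.268 for Th2 and Th17, and 0.004 for Th1 and Th2. They cannot decide if same-numbered cultures were prepared together. With the replicate block, 1 member was called between Th2 and Th1, a different gene: the calls of Ccr8 (adjusted p = 0.0864) and Zfpm1 (0.0757) ended and Ccr4 (3.50, 0.0328) was called. Under the block 2 were called between Tfh and Th2, Zfpm1 and also Ccr4 (-1.15, 0.0396), and Ccr4 was called between Tfh and Th17 (-1.21, 0.0344).

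Sign changes outside called differences were these. Il4ra, Tfh minus Th1, was -0.91 after quantile normalization and -0.17 after the median shift, and Tfh minus Th2 was 0.081 with its other probe set (also the one of largest spread). Ccr8, Tfh minus Th2, was -0.16 after quantile normalization. Without each array in turn, Th2 minus Th1 ranged from -0.30 to 2.68 for Nfil3 and from -0.31 to 1.26 for Il4ra. Th2 minus Th17 ranged from -1.08 to 0.39 for Il4ra and from -0.79 to 0.67 for Ccr4. Th17 minus Th1 ranged from -1.28 to 1.51 for Gata3, from -1.78 to 1.20 for Nfil3 and from -0.77 to 1.22 for Ccr8. Tfh minus Th1 ranged from -0.32 to 2.67 for Nfil3 and from -0.56 to 1.00 for Il4ra. Tfh minus Th2 ranged from -0.54 to 0.16 for Gata3, from -0.73 to 0.70 for Nfil3 and from -0.99 to 0.48 for Il4ra, and Tfh minus Th17 from -1.21 to 0.009 for Il4ra.

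The count over all genes between Th2 and Th1 (100 higher and 39 lower) was 23 and 4 without Tfh replicate 1, 22 and 4 without Tfh replicate 2, and 6 and 1 in a fit on only the 2 groups. Between Th2 and Th17 (54 and 21) it was 19 and 4, 18 and 3, and 6 and 1. Between Th17 and Th1 (9 and 7) it was 2 and 1 without either Tfh array and 54 and 49 without Th1 replicate 1. For Tfh against Th1, Th2 and Th17 the genes called higher were 3544, 3645 and 3319 after the median shift, and the lower ones 1160, 1212 and 1127.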
